A study of Mus musculus with 6 samples.

Results

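The genes described here encode the surface proteins by which mouse haematopoietic stem cells are sorted, measured on bead arrays of transplanted stem cells. They were chosen as every probe of the value table whose gene symbol is Ly6a, Kit, Slamf1, Cd48, Cd34, Flt3, Procr, Thy1, Ptprc or Cd27. Of the 10 genes, 9 had a probe, which gave 19 of the 46237 probes, and 9 of the 22491 gene symbols, on the array. No probe carries the symbol Ly6a in the annotation used here, so Ly6a (Sca-1) was not analysed.

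There were 6 one-colour arrays in all, 3 of Matn4-/- cells and 3 of wt cells. Matn4 encodes matrilin-4, a secreted adapter that joins matrix proteins. The Matn4-/- cells came from a CD45.2 donor, and the wt cells came from a donor carrying both CD45.1 and CD45.2. Equal parts of both marrows were given to CD45.1 recipients that had received 2 doses of 500 rad, so the cells of both genotypes had been transplanted into irradiated hosts. Both were sorted 4 weeks later as LSK CD150+ CD48- cells, and all mice are labelled as female, C57/BL6 and 12 weeks old. The labels do not say how the Matn4 allele was made or whether an array holds 1 recipient or several, so p-values measure the spread between these samples. The same gate selected both genotypes on the Sca-1, Kit, CD150 and CD48 proteins, and a difference in these proteins that moved cells out of the gate would not be seen in the RNA of the sorted cells.

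Mouse stem cells lie among lineage-negative marrow cells with Sca-1 and Kit on their surface (LSK). Within that fraction the SLAM family receptors separate them further, since stem cells carry CD150 (Slamf1) and lack CD48, which most progenitors carry. Adult mouse long-term stem cells are also known for little or no CD34 and FLT3, which appear on multipotent progenitors, and for EPCR (Procr) and low Thy1. CD27 and CD45 (Ptprc) are shared by stem cells and many of their descendants.

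Cd48 and Slamf1 are close neighbours on chromosome 1, and the gate asks for opposite states of their proteins. Their promoters, 250 bases before to 50 after the start of the gene, are shown because the Cd48 probe lay below the array background and 1 of 2 Slamf1 probes above it on all 6 arrays. They are RefSeq sequences of build GRCm38.p6, on the plus strand, at chr1:171681742-171682041 for Cd48 and chr1:171766882-171767181 for Slamf1. Capitals mark matches to any of 4 motifs searched on both strands.
Cd48: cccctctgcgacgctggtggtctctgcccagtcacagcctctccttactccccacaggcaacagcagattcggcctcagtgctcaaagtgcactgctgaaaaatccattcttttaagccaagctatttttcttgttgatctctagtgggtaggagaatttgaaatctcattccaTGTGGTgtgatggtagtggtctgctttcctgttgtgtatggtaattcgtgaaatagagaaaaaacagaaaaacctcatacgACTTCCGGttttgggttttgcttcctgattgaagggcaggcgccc
Slamf1: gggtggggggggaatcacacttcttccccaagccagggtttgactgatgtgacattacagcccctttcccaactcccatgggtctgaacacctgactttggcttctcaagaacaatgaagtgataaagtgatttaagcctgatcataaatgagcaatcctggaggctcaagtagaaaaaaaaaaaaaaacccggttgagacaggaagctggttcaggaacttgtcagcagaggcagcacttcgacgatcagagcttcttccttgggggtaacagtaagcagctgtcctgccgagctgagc
The motifs were the ETS motifs AGGAAGT and CCGGAAGT, the GATA motif AGATAA and the RUNX motif TGTGGT. The Cd48 promoter held 1 match to CCGGAAGT, on the minus strand, and 1 to TGTGGT, on the plus strand. The Slamf1 promoter held a match to none of the 4 motifs as spelled here, and other spellings were not searched. Of all 32851 promoters in the table, 3.89% held CCGGAAGT, 9.35% held AGGAAGT, 11.2% held AGATAA and 16.8% held TGTGGT. A match is a description of the letters and not a sign of binding.

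Values are the intensities the authors deposited, on a linear scale with the array background still in them. Background was read from 15 probes of genes on the Y chromosome, absent from female cells. The brightest of these lay between 126 and 142 on the 6 arrays, and a probe is called above background on an array where it exceeds that array's brightest Y-linked probe. Brightness depends on each probe's own hybridisation, so no gene's level is set against another's. The arrays had medians of 118 to 120. Over all probes Matn4-/- replicate 3 stood apart. Its mean Spearman correlation with the other arrays was 0.745, against 0.852 to 0.866 for the others. Over the probes kept in the fit, Matn4-/- replicate 3 had 0.780 and Matn4-/- replicate 1 had 0.796, against 0.830 to 0.837 for the others. On those probes Matn4-/- replicate 1 thus stood nearly as far apart. Without Matn4-/- replicate 3, the sign turned in 4 of the 15 marker probes kept in the fit and 0 passed the test. These were Kit ILMN_1216898 at log2 0.035, Slamf1 ILMN_1249863 at -0.0088, Ptprc ILMN_1212836 at -0.075 and Cd27 ILMN_3052501 at -0.0067.

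The stem cell label was checked against marker genes of each cell type. Of 14 measured stem cell genes, 11 lay above background on all 6 arrays, among them Mecom, Meis1, Hoxb5 and Pdzk1ip1, and Gata3 was the 1 gene of this list at background on all 6. Of 9 measured genes of T and NK cells, 5 were at background on every array, among them Cd8a and the CD3 subunit genes Cd3d, Cd3e and Cd3g. Cd8b1 and Lat were above it on all 6. On 1 probe of each the arrays of the genotypes did not overlap, as on 10.4% of all probes fitted. Cd8b1 stood there at 278 to 291 on Matn4-/- arrays against 319 to 342 on wt arrays (-0.21 as log2 of Matn4-/- over wt, limma adjusted p = 0.790). Lat stood there at log2 -0.25 (limma adjusted p = 0.790). On the other Lat probe the groups overlapped (log2 -0.035), and the other Cd8b1 probes were above background on at most 1 array. Of 5 measured B cell genes, Ms4a1 and Pax5 were at background on every array, and Cd79b and Vpreb1 were above it on all 6. Of 12 neutrophil and monocyte genes, 4 were above background on all 6, Mpo among them, and 3 at background on all 6, S100a8 among them, while S100a9 was above it on 5. Hbb-b1, Pf4 and Mcpt8, genes of red cells, platelets and basophils, lay above it on all 6. Of 19 kept erythroid probes, 12 stood higher in Matn4-/- cells and 7 lower, and the groups did not overlap in 1. That was Car1, at 204 to 257 on Matn4-/- arrays against 137 to 199 on wt arrays (log2 0.46, limma adjusted p = 0.702). All 6 kept probes of mast cells and basophils stood higher, against 46.1% of all probes, and 2 did not overlap. The part of these genes in the marker values was not tested. Of 23 kept stem cell probes, 6 stood higher in Matn4-/- cells and 17 lower, with a median of log2 -0.096 against -0.0088 over all probes. The groups did not overlap in 3, and 0 passed limma's threshold. Of 12 kept neutrophil and monocyte probes, 10 stood higher and 2 lower, with a median of log2 0.11 and 0 without overlap. Summed over the brightest probe of each gene, the stem cell list stood at 3703 to 4090 on Matn4-/- arrays and at 3991 to 4224 on wt arrays. The neutrophil and monocyte list stood at 2212 to 3085 on Matn4-/- arrays and at 2096 to 2883 on wt arrays. The sums did not overlap for T and NK cells, at 1244 to 1301 on Matn4-/- arrays against 1306 to 1376 on wt arrays. Nor did they for megakaryocytes, at 1257 to 1351 on Matn4-/- arrays against 1360 to 1412 on wt arrays. For every other cell type list they overlapped. The brightest of 3 Matn4 probes read 168, 318 and 331 on Matn4-/- replicates 1 to 3, against 310, 158 and 378 on wt replicates 1 to 3. The sources used here do not say whether it targets the deleted exons, so it does not check the genotype labels.

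Of the 9 measured surface marker genes, 8 had a probe above background on all 6 arrays, and Cd48 did not. By a stricter background, the median Y-linked probe plus 3 SD, 6 genes did, and Slamf1 and Thy1 then joined Cd48. None of the markers differed detectably between the genotypes. In sorted pools, fewer cells with a transcript and less of it per cell cannot be told apart. A filter kept the brighter 50% of all probes, which left 15 of the 19 marker probes in 8 genes. Of these 15, 0 passed limma's test at an adjusted p under 0.05, where 11 of all 23118 probes passed, 0.0476%. At a limma unadjusted p under 0.05 stood 0 of the 15 as well, against 5.45% of all probes. Without the filter Cd34 alone stood there (limma unadjusted p = 0.0442). The fold changes, Matn4-/- over wt on the log2 scale, ran from -0.20 to 0.18 with standard errors of 0.07 to 0.19. Above 0 were 9 and below 0 were 6, with a median of 0.014 against -0.0088 over all probes, 46.1% of which lay above 0. Over the 95% intervals of the 15 probes, the lowest bound was 0.754-fold (Cd34) and the highest was 1.52-fold (Flt3), in intensities that still hold background and so understate the fold of dim genes.

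**Figure D1:**
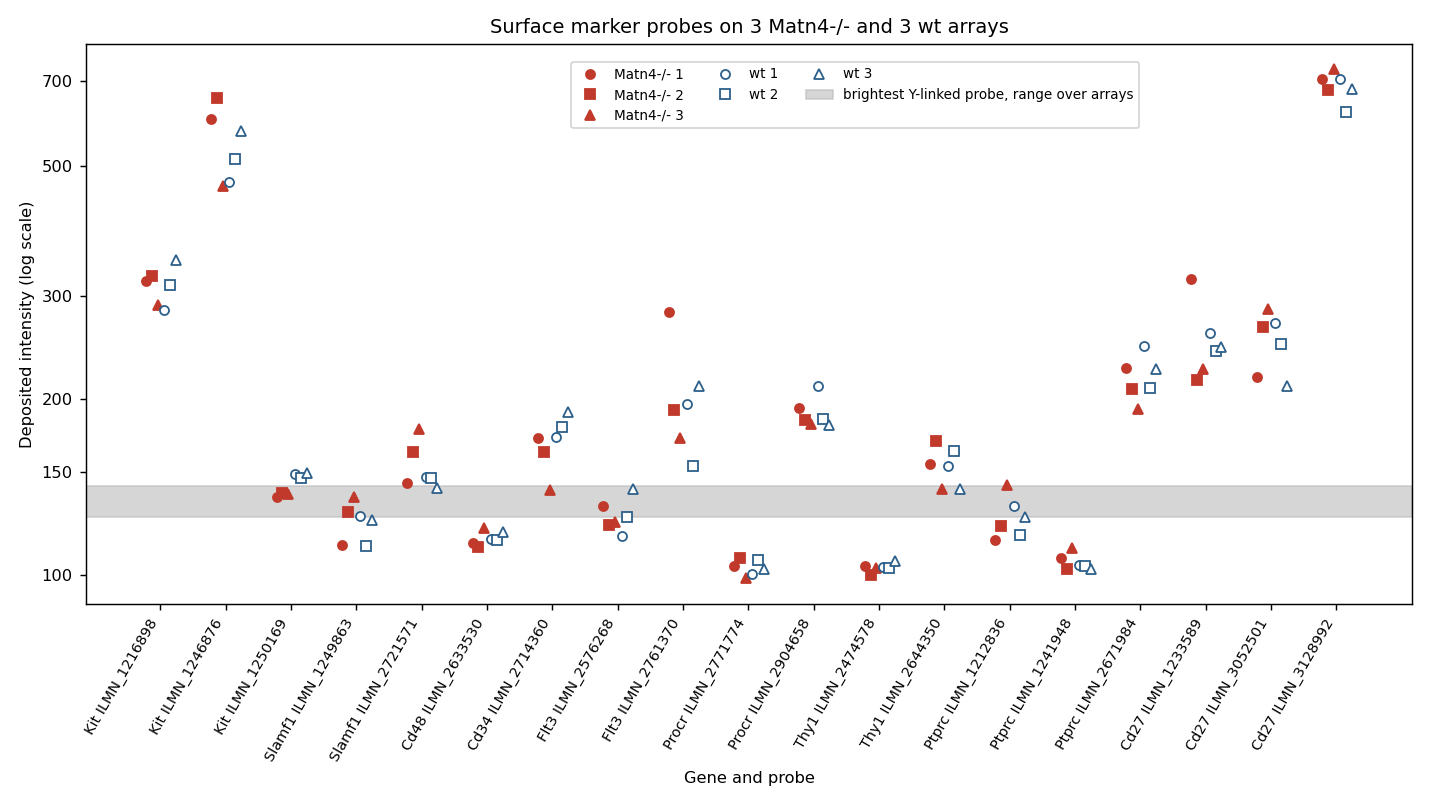
Deposited intensity (log axis) of each of the 19 probes of 9 surface marker genes, with a filled symbol per Matn4-/- array and an open symbol per wt array. The grey band is the range of the brightest Y-linked probe over the arrays, and the Cd48 probe lies below it on all 6 arrays whereas a probe of each of the other 8 genes lies above that array's brightest Y-linked probe on all 6.

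Kit encodes the receptor for stem cell factor, a tyrosine kinase that stem cells need for their maintenance. Its brightest probe, ILMN_1246876, read 601, 653 and 462 on Matn4-/- replicates 1 to 3, against 470, 515 and 575 on wt replicates 1 to 3. Matn4-/- replicates 1 and 2 were the 2 highest arrays and Matn4-/- replicate 3 the lowest, so the groups overlapped. The means were 572 ± 98.4 in Matn4-/- cells and 520.1 ± 52.8 in wt cells (SD, n = 3 each), which differed by 0.13 ± 0.13 on the log2 scale (SE, limma adjusted p = 0.999). Without Matn4-/- replicate 3 that difference was 0.27 (limma unadjusted p = 0.0287, adjusted p = 0.634). The second Kit probe, ILMN_1216898, which is annotated to a cDNA clone, read 318, 324 and 290 on Matn4-/- arrays, against 284, 314 and 346 on wt arrays (log2 -0.014 ± 0.092, adjusted p = 0.999).

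Another Kit probe, ILMN_1250169, also annotated to a cDNA clone, was dimmer and separated the groups. It read 136, 138 and 137 on Matn4-/- replicates 1 to 3, of which 2 were above background, against 149, 147 and 150 on wt replicates 1 to 3, all above it. Every Matn4-/- array lay below every wt array, a log2 difference of -0.11 ± 0.07 (SE of the limma fit, unadjusted p = 0.119, adjusted p = 0.962). With the median Y-linked probe subtracted from each array the difference was -0.61 ± 0.15 (limma unadjusted p = 0.0073, adjusted p = 0.582). The 3 Kit probes thus did not move together, 1 standing above 0 and 2 below. Of the 15 kept marker probes, 2 had groups that did not overlap, both lower in Matn4-/- cells, this one and Cd34. That is 13.3%, against 10.4% of all probes in either direction and, by direction, 6.37% lower and 4.04% higher.

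Slamf1 encodes CD150, a self-binding receptor of the SLAM family and the positive marker of the gate. Probe ILMN_2721571 read 144, 162 and 178 on Matn4-/- replicates 1 to 3, against 147, 147 and 141 on wt replicates 1 to 3, each above background. Matn4-/- replicates 2 and 3 exceeded all wt arrays and Matn4-/- replicate 1 did not. The log2 fold change was 0.15 ± 0.09 (SE, limma adjusted p = 0.977), and 0.073 without Matn4-/- replicate 3. Without Matn4-/- replicate 1 it was 0.23 (limma unadjusted p = 0.0226, adjusted p = 0.715). The other Slamf1 probe, ILMN_1249863, was above background on 1 of 6 arrays, at 113 to 136 on Matn4-/- arrays and 112 to 126 on wt arrays. A probe listed under the older symbol Slam, annotated to a cDNA clone, read 116 to 130 on Matn4-/- arrays and 121 to 134 on wt arrays. It was above background on 1 of 6 (log2 -0.045, limma adjusted p = 0.999). The symbol updates did not place it at Slamf1, and it is counted neither among the markers nor in the SLAM family.

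Cd48 encodes a lipid-anchored SLAM family protein that binds CD244 and CD2, and cells carrying it were gated out. Its single probe read 113, 112 and 120 on Matn4-/- replicates 1 to 3, against 115, 115 and 119 on wt replicates 1 to 3. All 6 values lay below each array's brightest Y-linked probe, so Cd48 has no measured fold. The probe ranked between the 36.4th and the 51.7th percentile of all probes on its array.

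Cd34 encodes a sialomucin found on progenitors and endothelium. Its 1 probe read 171, 162 and 140 on Matn4-/- replicates 1 to 3, against 172, 179 and 190 on wt replicates 1 to 3, above background throughout. All Matn4-/- arrays were below all wt arrays, the highest of them by less than 1 unit. The log2 fold change of -0.20 ± 0.09 (SE, limma unadjusted p = 0.0621, adjusted p = 0.933) was the lowest among the markers. It stood at -0.11 without Matn4-/- replicate 3 and at -0.26 without Matn4-/- replicate 1 (limma unadjusted p = 0.0265, adjusted p = 0.718). With background subtracted it was -0.70 ± 0.33 (adjusted p = 0.865).

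Flt3 encodes the receptor tyrosine kinase for FLT3 ligand and marks multipotent progenitors that have lost long-term activity. Probe ILMN_2761370 read 282, 191 and 172 on Matn4-/- replicates 1 to 3, against 196, 154 and 210 on wt replicates 1 to 3. Matn4-/- replicate 1 stood alone at the top and the other arrays of both genotypes intermingled. At 0.18 ± 0.19 (SE, limma adjusted p = 0.999) its log2 fold change was the highest and the least precise among the markers. Without Matn4-/- replicate 1 it was -0.030, and without Matn4-/- replicate 3 it was 0.33. The second Flt3 probe, ILMN_2576268, annotated to a cDNA clone, was above background on 1 of 6 arrays.

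Procr encodes EPCR, the endothelial protein C receptor, carried by the most primitive stem cells. Probe ILMN_2904658 read 193, 184 and 181 on Matn4-/- replicates 1 to 3, against 210, 185 and 181 on wt replicates 1 to 3. The groups overlapped, and wt replicate 1 was the highest array (log2 -0.042 ± 0.082, SE, limma adjusted p = 0.999). The other Procr probe was at background on all 6 arrays, with 98.8 to 107 on Matn4-/- arrays and 101 to 106 on wt arrays. Procr lies on chromosome 2, as Matn4 does.

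Thy1 encodes a lipid-anchored glycoprotein that is low on mouse stem cells and high on T cells. Probe ILMN_2644350 read 155, 170 and 140 on Matn4-/- replicates 1 to 3, against 153, 163 and 140 on wt replicates 1 to 3. The groups covered nearly the same range (log2 0.025 ± 0.094, SE, limma adjusted p = 0.999). The second Thy1 probe was at background on all 6 arrays, at 100.1 to 104 on Matn4-/- arrays and 103 to 106 on wt arrays.

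Ptprc encodes CD45, the tyrosine phosphatase whose alleles told the donors apart. Its brightest probe, ILMN_2671984, read 226, 208 and 192 on Matn4-/- replicates 1 to 3, against 247, 209 and 226 on wt replicates 1 to 3. Matn4-/- replicate 3 was the lowest array and wt replicate 1 the highest, and the other arrays overlapped. This was a log2 difference of -0.12 ± 0.09 (SE, limma adjusted p = 0.998), and -0.063 without Matn4-/- replicate 3. Probe ILMN_1212836 was above background on 2 of 6 arrays, at 115 to 142 on Matn4-/- arrays and 117 to 131 on wt arrays, and probe ILMN_1241948 on none. The donors carry different Ptprc alleles, and whether a probe lies over a base that differs between them was not tested.

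Cd27 encodes a receptor of the TNF receptor family whose ligand is CD70. All 3 of its probes were above background on all 6 arrays. The brightest, ILMN_3128992, read 704, 675 and 732 on Matn4-/- replicates 1 to 3, against 704, 620 and 678 on wt replicates 1 to 3 (log2 0.08 ± 0.08, SE, limma adjusted p = 0.999). Matn4-/- replicate 3 was the highest array and wt replicate 2 the lowest, with the others overlapping. Probe ILMN_1233589 read 320, 216 and 225 on Matn4-/- arrays, against 259, 242 and 246 on wt arrays. Probe ILMN_3052501 read 218, 265 and 285 on Matn4-/- arrays, against 270, 249 and 210 on wt arrays. Matn4-/- replicate 1 was thus the highest array on one of them and the lowest of its genotype on the other. The log2 fold changes of these 2 were 0.0045 ± 0.14 and 0.074 ± 0.12 (SE), and 0.079 and -0.0067 without Matn4-/- replicate 3. Without Matn4-/- replicate 1 they were -0.18 and 0.19, so both depended on that array.

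**Figure D2:**
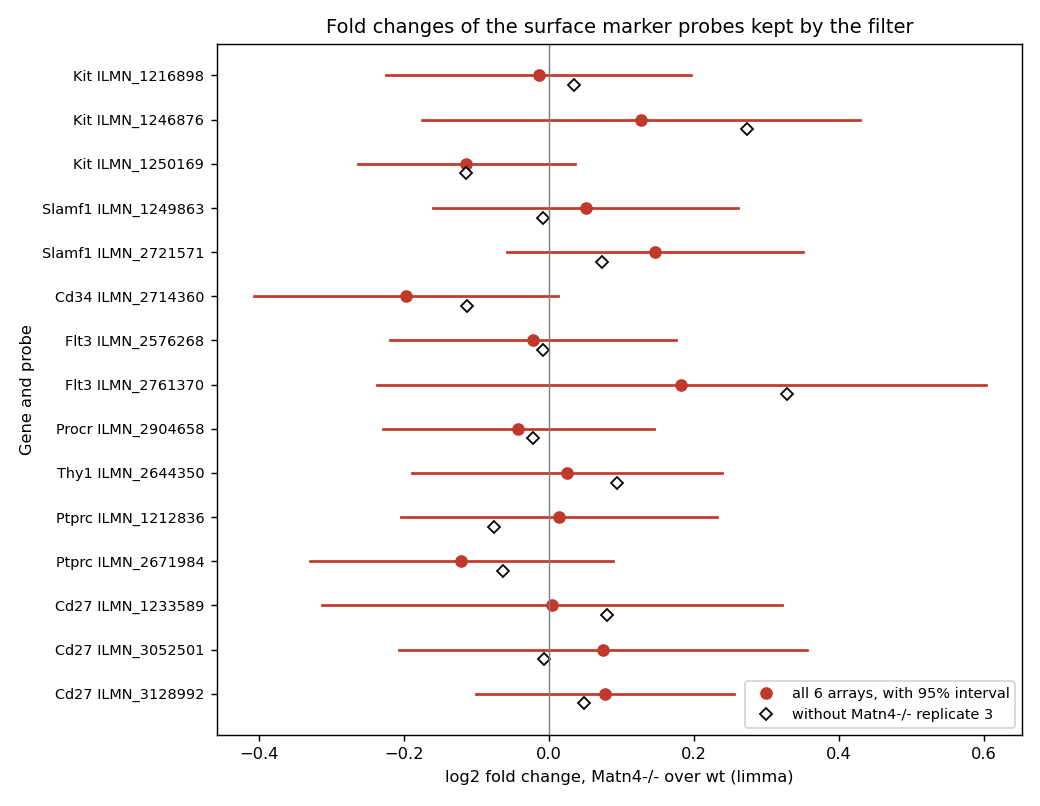
The log2 fold change of the 15 kept marker probes, Matn4-/- over wt, from limma with its 95% interval (filled circles and lines), and the value without Matn4-/- replicate 3 (open diamonds). Every interval reaches across 0, and the diamonds of Kit ILMN_1246876 at 0.27 and Flt3 ILMN_2761370 at 0.33 lie furthest to the right.

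Relatives and partners of the markers were counted by list, with 0 probes past limma's threshold in each of 5 lists. At a limma unadjusted p under 0.05 stood 0 of 5 kept probes of the SLAM family, 0 of 8 of the Ly6 family, 2 of 36 of other surface genes, 1 of 6 of ligands and binding partners and 3 of 40 of signalling genes, against 5.45% of all probes. In the SLAM family, which holds Slamf1 and Cd48 too, 10 of 12 genes were measured, and 6 of them were at background on all 6 arrays, among them Slamf6 and Slamf7. Of its 5 kept probes, 4 stood above 0 and 1 below, with a median log2 fold change of 0.095. Cd84, a self-binding receptor next to Slamf1 in the cluster, read 144, 149 and 134 on Matn4-/- replicates 1 to 3, against 152, 142 and 208 on wt replicates 1 to 3 (log2 -0.21 ± 0.14, limma adjusted p = 0.986). Without wt replicate 3 it stood at -0.047. Ly9 stood at 0.15 and, without Matn4-/- replicate 3, at -0.0051 (limma adjusted p = 0.999 and 0.994), on a probe above background on 2 of 6 arrays.

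In the Ly6 family, the relatives of Ly6a, 12 of 15 measured genes were at background on all 6 arrays, and Ly6e alone was above it on all 6. Of 8 kept probes, 3 stood above 0 and 5 below. Ly6e, singled out after its values were seen, averaged 336 ± 14.2 in Matn4-/- cells and 328 ± 24.2 in wt cells on its brighter probe (SD, n = 3 each), a difference of 0.035 ± 0.081 on the log2 scale (SE, limma adjusted p = 0.999).

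Among other surface genes of stem and progenitor cells, 28 of 30 were measured and 10 were above background on all 6 arrays, including Tek, Tie1, Esam, Robo4 and Itga2b. Of cytokine receptor genes in this list, Il7r, Csf1r and Epor were at background on all 6 arrays, Csf2ra was above it on all 6, and 1 of 5 Csf3r probes was above it on 5. Of 36 kept probes, 11 stood above 0 and 25 below, with a median of -0.037, and the groups did not overlap in 3, against 10.4% of all probes. Clec1a, a C-type lectin receptor, averaged 169 ± 18.9 in Matn4-/- cells and 144 ± 7.51 in wt cells on 1 probe (SD, n = 3 each; log2 0.22 ± 0.10, limma adjusted p = 0.914), while its 2 other kept probes stood at 0.12 and -0.0096. Neo1, the netrin receptor neogenin, stood at 0.21 (adjusted p = 0.902) on a probe above background on 1 of 6 arrays. Itga2b, the platelet integrin CD41, stood at -0.25 (adjusted p = 0.965) on 1 probe and at -0.13 on another, which was above background on all 6 arrays. The first value was -0.44 without wt replicate 3 and -0.15 without wt replicate 1.

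Ligands and binding partners of the markers were mostly dim. Kitl and Flt3l, the ligands of KIT and FLT3, and Proc and Thbd, protein C and thrombomodulin, were at background on all 6 arrays. F2r, which encodes PAR1, the receptor through which EPCR-bound activated protein C signals, read 644, 549 and 576 on Matn4-/- replicates 1 to 3, against 775, 821 and 765 on wt replicates 1 to 3. All 3 Matn4-/- arrays lay below all 3 wt arrays. F2r differed by -0.42 ± 0.08 on the log2 scale (SE, limma unadjusted p = 0.000724, adjusted p = 0.327), which did not pass over all probes. It lay between -0.51 and -0.37 under the 16 alternative settings, with a lowest adjusted p of 0.241.

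Of the genes that signal from KIT, FLT3, CD45 and CD27, 28 of 32 were measured and 16 were above background on all 6 arrays. Of 40 kept probes, 20 stood above 0 and 20 below, with a median of -0.0033, and the groups did not overlap in 6, against 10.4% of all probes. Pik3r1, the regulatory subunit of phosphoinositide 3-kinase, read 1086, 952 and 916 on Matn4-/- replicates 1 to 3, against 806, 785 and 816 on wt replicates 1 to 3 (log2 0.29 ± 0.08, SE, limma adjusted p = 0.651). A second Pik3r1 probe stood at 0.26 ± 0.08 (adjusted p = 0.739), again with no overlap, and another at -0.025 with overlap. Csk, the kinase that restrains Src family kinases, read 703, 470 and 457 on Matn4-/- arrays, against 383, 402 and 475 on wt arrays (log2 0.35 ± 0.16, adjusted p = 0.934). Matn4-/- replicate 1 stood alone at the top for Csk, and without it the log2 value was 0.15. Dok1, a docking protein downstream of tyrosine kinases, stood at 0.18 (adjusted p = 0.902) on a probe above background on 1 of 6 arrays.

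**Figure D3:**
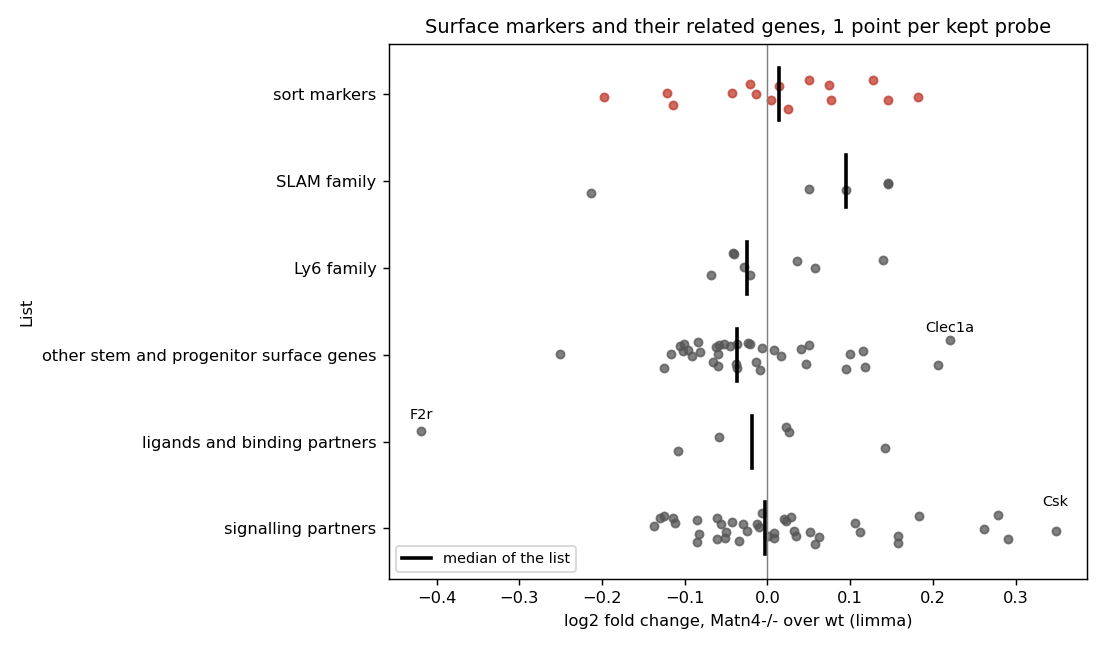
The log2 fold change, Matn4-/- over wt, of each kept probe of the sort markers and of 5 lists of related genes, with 1 point per probe and a black bar at each list's median. The sort markers lie between -0.20 and 0.18, and F2r at -0.42 and Csk at 0.35 (0.15 without Matn4-/- replicate 1) stand at the ends of their lists.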

How the data were processed

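Per the labels' protocols, 2.5 ng of RNA was amplified isothermally and hybridised as biotin-labelled material. The deposited values are intensities, 1 per probe and array, and the sources used here do not give the authors' normalization. A second table with 12 value columns was not used, since its column names match no label.

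Of 46237 probes, 35784 had 1 gene symbol, 0 several and 10453 none. Members were matched by that symbol, and lists also by symbols updated through Entrez identifiers or accessions (GRCm38.p6 gene table). Intensities were transformed to log2 and fitted probe by probe with limma 3.58.1 in R 4.3.3 (lmFit, eBayes, genotype as the only term) over the brighter 50% of probes by mean log2 intensity, 23118 in all. P-values were adjusted over these by Benjamini-Hochberg, with a threshold of 0.05. The number of arrays limits precision. The code of the fit was run on simulated data with independent noise per probe and no outlying array. That run does not measure the power on these arrays. Alternatives left out each array, blocked by replicate number, and changed filter, scaling, background, eBayes settings and probes per gene. Same-numbered arrays deviated together with correlations of 0.0096, 0.044 and 0.0496, against -0.067 to 0.020 for the other pairs of arrays. These small values do not settle whether the numbers are pairs, and the main fit left them unpaired.

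The markers are all named, with Matn4. From related lists at most 3 genes, those with the smallest p, are given with values, except Ly6e and the second probes of named genes, which were added after the values were seen. Members and lists were chosen with earlier results of these data known. Python 3.11.15 was used for tables (pandas 2.3.3) and figures (matplotlib 3.10.9).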

Additional observations from a re-analysis of the deposited data

How the results depend on the processing

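No marker probe passed the threshold under any of 16 other settings, where the lowest adjusted p was 0.582, and none of the 5 related lists had a gene past it. Over all probes the count past the threshold was 11, and 2 with background subtracted, 17 with a trended and robust eBayes fit, 7 with 1 probe per gene symbol, and 3 to 9 with an array left out. With the replicate number as a block, 0 marker probes and 13 of all probes passed. Blocking, the filters, the eBayes settings and 1 probe per gene symbol left each probe's log2 value as it was, so the signs there could not turn. The unfiltered fit without Matn4-/- replicate 3 repeated the values of the filtered one. With all these counted, of 128 values of the markers' brightest probes under other settings, 123 kept their sign and 5 did not. These were Flt3 without Matn4-/- replicate 1 (-0.030, range over arrays left out -0.030 to 0.33), Procr without wt replicate 1 (0.025, range -0.083 to 0.025), and Thy1 without Matn4-/- replicate 2 (-0.043) or wt replicate 3 (-0.033, range -0.043 to 0.094) and with background subtracted (-0.047). Ly9 turned to -0.0051 without Matn4-/- replicate 3 (range over arrays left out -0.0051 to 0.24), with the filter and without it; the fit without it was tried after the data were seen. The cause of these turns was not tested. Subtracting background moved Cd34 and the dim Kit probe furthest from 0. Dim probes such as those of Cd48 and the second probes of Procr and Thy1 carry no measurable difference.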
